A study of Mus musculus with 11 samples.

Results

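Replication-dependent histone genes are the clustered genes that supply the bulk of nuclear histone protein, and 70 of them, under symbols starting with Hist1h, Hist2h, Hist3h or Hist4h, were listed in the expression files. The 60 genes with at least 1 FPKM (a read level corrected for gene length and for the size of the library) in 2 or more of 11 libraries are described here, out of 45866 genes listed and 15605 that met the same minimum. They were 5 of 6 H1 genes, 14 of 20 H2A genes, 16 of 19 H2B genes, all 12 H3 genes and all 13 H4 genes. They were thus selected on their measured FPKM in all groups, and 24 passed the minimum only through tumour libraries, 2 only through brain libraries, 33 in both tissues and 1 (Hist1h4n) through 1 library of each. The minimum thus used tumour values for some genes and not for others, so counts of members that were higher in tumour are given as a description beside the share of all tested genes. Single genes that met the minimum through 1 tissue alone are given with their values and no test between the tissues. Where such a gene is named as 1 of the calls, this only says which gene the count holds.

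The libraries held RNA bound to tagged ribosomes of endothelial cells (translating ribosome affinity purification). All mice were adult C57BL/6 animals that carried eGFP-L10a, a tagged ribosomal protein, driven by the VE-cadherin promoter, which is active in endothelium. The groups were tumour of wild type mice (n = 3), tumour of Eltd1-/- mice (n = 2), healthy brain of wild type mice (n = 3) and healthy brain of Eltd1-/- mice (n = 3). Tumours had been grown from GL261, a mouse glioma cell line placed in the brain, and Eltd1-/- mice, called knockout here, lack an adhesion G protein-coupled receptor of endothelium now named Adgrl4. The labels' protocol speaks of 3 mouse samples per group, of which 2 libraries from knockout tumour were analysed. GL261 cells do not carry the tagged ribosome by this design, and the libraries hold whatever RNA came down with the beads.

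The core histones H2A, H2B, H3 and H4 form the octamer around which DNA winds, and the linker histone H1 binds where the DNA enters and leaves it. Replication-dependent histone mRNAs accumulate during S phase, when new DNA must be packed, and are the mRNAs of animal cells that end in a stem-loop instead of a poly(A) tail. The stem-loop is bound by Slbp, the U7 particle helps to cut it, and Npat drives transcription of the clusters. Cells that have left the cycle make mainly replacement histones such as H3f3a, H3f3b, H2afz and H1f0, whose mRNAs carry poly(A) tails. Per the labels' protocols, ribosomal RNA was removed before cDNA synthesis, and a selection for poly(A) tails is not part of the steps given there.

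RefSeq on GRCm38.p6 placed 59 of the 60 genes by symbol. Most of the Hist1 genes lie on chromosome 13 in a pair of blocks, chr13:21715711-22043658 with 17 of the genes described and chr13:23531044-23934913 with 27. The 10 Hist2 genes lie at chr3:96219885-96270192, the 3 Hist3 genes at chr11:58948911-58955192 and Hist4h4 at chr6:136803993-136804431. Hist1h2al, an H2A symbol, belongs to a RefSeq transcribed pseudogene (H2af-ps2) elsewhere on chromosome 13, and Hist3h2bb-ps is also annotated as a pseudogene.

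The bases just before the start of 5 genes, 1 per type, show where some promoter elements lie. CCAAT is marked in all 5, and TATAAA in Hist1h1e, Hist2h2ac and Hist1h4d. The H4 gene shown has CCAAT, unlike most H4 windows described below. Each run gives the 180 bases up to the start, 5′ to 3′ on the gene's strand, from RefSeq's GRCm38.p6 sequence. Capitals mark TATAAA as the TATA box. They also mark CCAAT, which reads ATTGG where it lies on the other strand. The octamer of H2A and H2B promoters, ATTTGCAT, is marked too. The H1 promoters' own element, AAACACA, is the last one marked. Hist1h1e (H1) is shown at chr13:23622559-23622738, minus strand, Hist2h2ac (H2A) at chr3:96220881-96221060, minus strand, Hist2h2bb (H2B) at chr3:96269520-96269699, plus strand, Hist1h3e (H3) at chr13:23562386-23562565, minus strand and Hist1h4d (H4) at chr13:23581388-23581567, plus strand.
Hist1h1e: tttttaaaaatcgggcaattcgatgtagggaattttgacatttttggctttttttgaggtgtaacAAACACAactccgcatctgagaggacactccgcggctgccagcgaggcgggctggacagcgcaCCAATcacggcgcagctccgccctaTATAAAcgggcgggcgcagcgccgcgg
Hist2h2ac: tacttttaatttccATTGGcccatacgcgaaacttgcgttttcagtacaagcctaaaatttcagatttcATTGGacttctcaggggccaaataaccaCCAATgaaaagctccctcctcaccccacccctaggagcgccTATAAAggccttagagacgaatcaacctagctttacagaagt
Hist2h2bb: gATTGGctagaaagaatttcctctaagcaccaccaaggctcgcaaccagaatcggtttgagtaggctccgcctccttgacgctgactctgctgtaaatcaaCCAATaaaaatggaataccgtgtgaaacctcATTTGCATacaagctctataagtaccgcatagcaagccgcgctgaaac
Hist1h3e: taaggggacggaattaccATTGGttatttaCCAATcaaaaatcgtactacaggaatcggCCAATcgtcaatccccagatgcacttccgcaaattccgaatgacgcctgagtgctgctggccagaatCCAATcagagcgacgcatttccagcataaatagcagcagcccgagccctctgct
Hist1h4d: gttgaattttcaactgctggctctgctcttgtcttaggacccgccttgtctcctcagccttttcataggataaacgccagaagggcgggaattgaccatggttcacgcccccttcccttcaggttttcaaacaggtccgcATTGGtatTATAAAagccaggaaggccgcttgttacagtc
In Hist1h1e the AAACACA element starts at -115, the CCAAT box at -52 and the TATA box at -27, counting -1 as the base before the start. In Hist2h2bb the octamer starts at -48.

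Promoter windows of 300 bases (250 before and 50 after the start) were found for 52 of the 60 genes. Motifs were searched on both strands, without mismatches and with overlaps between motifs allowed. CCAAT was present in 5 of 5 H1, 12 of 12 H2A, 13 of 13 H2B and 10 of 10 H3 windows, against 3 of 12 H4 windows and 37.4% of all 32851 windows in the RefSeq table. AAACACA was found in 4 of 5 H1 windows, always on the gene's strand between -122 and -112, in 1 H2A and 1 H2B window, in 0 of 10 H3 and 0 of 12 H4 windows, and in 7.18% of all windows. ATTTGCAT was found in 5 of 12 H2A and 5 of 13 H2B windows, in 0 of 5 H1, 0 of 10 H3 and 0 of 12 H4 windows, and in 1.74% of all windows. TATAAA was found in 4 of 5 H1, 8 of 12 H2A, 7 of 13 H2B, 4 of 10 H3 and 8 of 12 H4 windows, against 13.6% of all windows. These are matches of letters only. Some H2A and H2B windows overlap because the genes lie head to head, so the same match can be counted for both.

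Summed FPKM per library ranged from 477911 to 641665, and between 8978 and 15434 genes had a value above 0. Wild type tumour 2 stood apart with the lowest of these counts, and 42.7% of the tested genes were listed at 0 there. Of the genes with at least 1 FPKM in each of the other 4 tumour libraries, it listed 2676 of 10966 (24.4%) at 0, and among the histone genes 14 of 45 (31.1%). Those 14 were 5 of 9 H3 genes, 5 of 9 H4 genes, 2 of 8 H2A genes, 2 of 14 H2B genes and 0 of 5 H1 genes. Wild type tumour 3 had a Snap25 level (a synaptic protein of neurons) of 2083 FPKM, against 52.2 to 631 in the other tumour libraries and 2457 to 3814 in brain. Counts below are therefore also given without these libraries. Adgrl4, the disrupted gene, was at 5.82 and 11.5 FPKM in knockout tumour against 27.4 to 192 in wild type tumour, and at 21.6 to 23.6 in knockout brain against 82.7 to 166 in wild type brain. Summed FPKM of 12 endothelial markers was 299 to 809 in tumour and 1336 to 1996 in brain, and none of these markers was at 0 throughout a group.

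Histone transcripts had far higher FPKM in the libraries from glioma than in those from healthy brain. Their summed FPKM was 6226, 5711 and 2171 in wild type tumour and 3686 and 3943 in knockout tumour. In brain it was 678, 622 and 908 in wild type and 846, 619 and 560 in knockout mice. Every tumour library exceeded every brain library, and the lowest tumour value came from wild type tumour 3. As a share of all FPKM, histone genes made up 0.454% to 1.17% in tumour and 0.107% to 0.171% in brain. In bulk RNA of this kind, fewer cells that express a gene and less RNA per cell cannot be told apart.

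The mixture of types differed between the tissues. H3 genes contributed 8.96% to 14.2% of the histone FPKM in tumour and 0.264% to 8.31% in brain, and H4 genes 6.35% to 8.87% in tumour and 19.1% to 40.5% in brain. For these types the tumour and brain libraries did not overlap, H3 being the larger share in tumour and H4 in brain. H2B genes took the largest median share in tumour, 35.8% (25.0% to 50.8%), against 16.2% (11.6% to 26.5%) in brain. H1 genes took 29.9% (21.5% to 40.5%) in tumour and 37.2% (27.8% to 44.2%) in brain, and H2A genes 13.5% (12.2% to 16.8%) and 17.9% (10.2% to 23.2%). The H1, H2A and H2B shares overlapped between the tissues. In summed FPKM, the median over libraries was 1228 in tumour and 255 in brain for H1, 651 and 128 for H2A, 1385 and 121 for H2B, 478 and 19.4 for H3, and 327 and 171 for H4. H4 was the type whose summed levels overlapped, since wild type tumour 3 (145) lay below 4 of the 6 brain libraries.

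**Figure D1:**
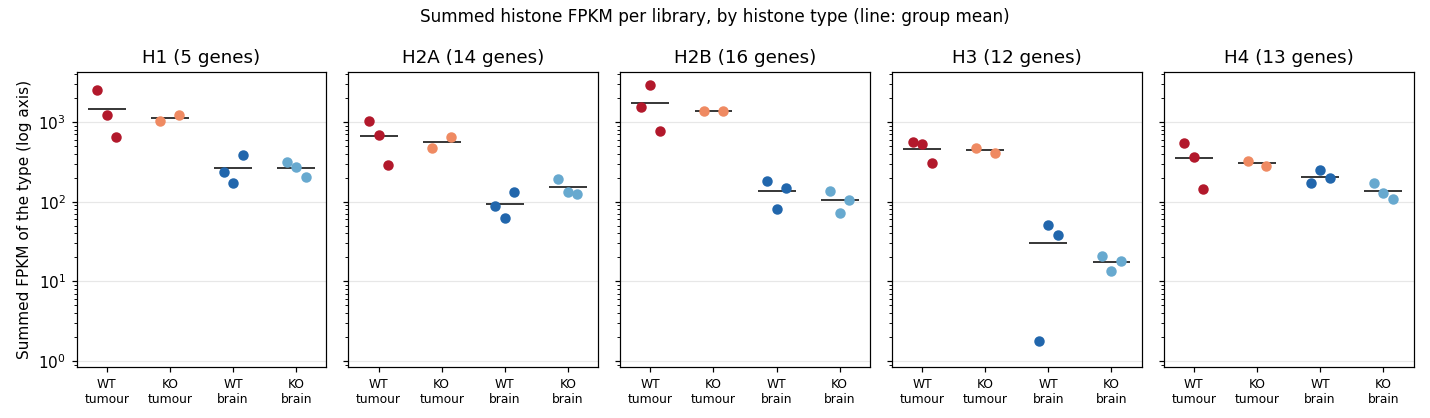
Summed FPKM of the genes of each histone type in each of the 11 libraries, on a log axis, with a line at each group's mean (WT, wild type; KO, knockout). For H1, H2A, H2B and H3 every tumour library lies above every brain library, while H4 overlaps.

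Many single genes were listed at 0 in brain. Members at 0 numbered 40, 38 and 16 in the wild type brain libraries and 32, 34 and 27 in the knockout brain libraries, against 2, 27 and 10 in wild type tumour and 5 and 4 in knockout tumour. In brain this was 26.7% to 66.7% of the members of a library, where 8.35% to 25.7% of all tested genes were at 0, and in tumour 3.33% to 45.0%, where 7.79% to 42.7% were. In all 6 brain libraries 9 members were at 0, and 13 were above 0 in all 6. Those 9 met the minimum only through tumour, as any gene at 0 throughout brain must, and the shares of all tested genes are not given here. A 0 in such a file can be a failed estimate, and the read depth of the libraries is unknown. Every tumour library exceeded every brain library for 18 of 60 members, where 8.73% of all tested genes did. Within wild type mice this held for 24 members (12.7% of all genes), and within knockout mice for 41 (22% of all genes). The 18 were 4 of 5 H1, 2 of 14 H2A, 8 of 16 H2B, 4 of 12 H3 and 0 of 13 H4 genes.

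**Figure D2:**
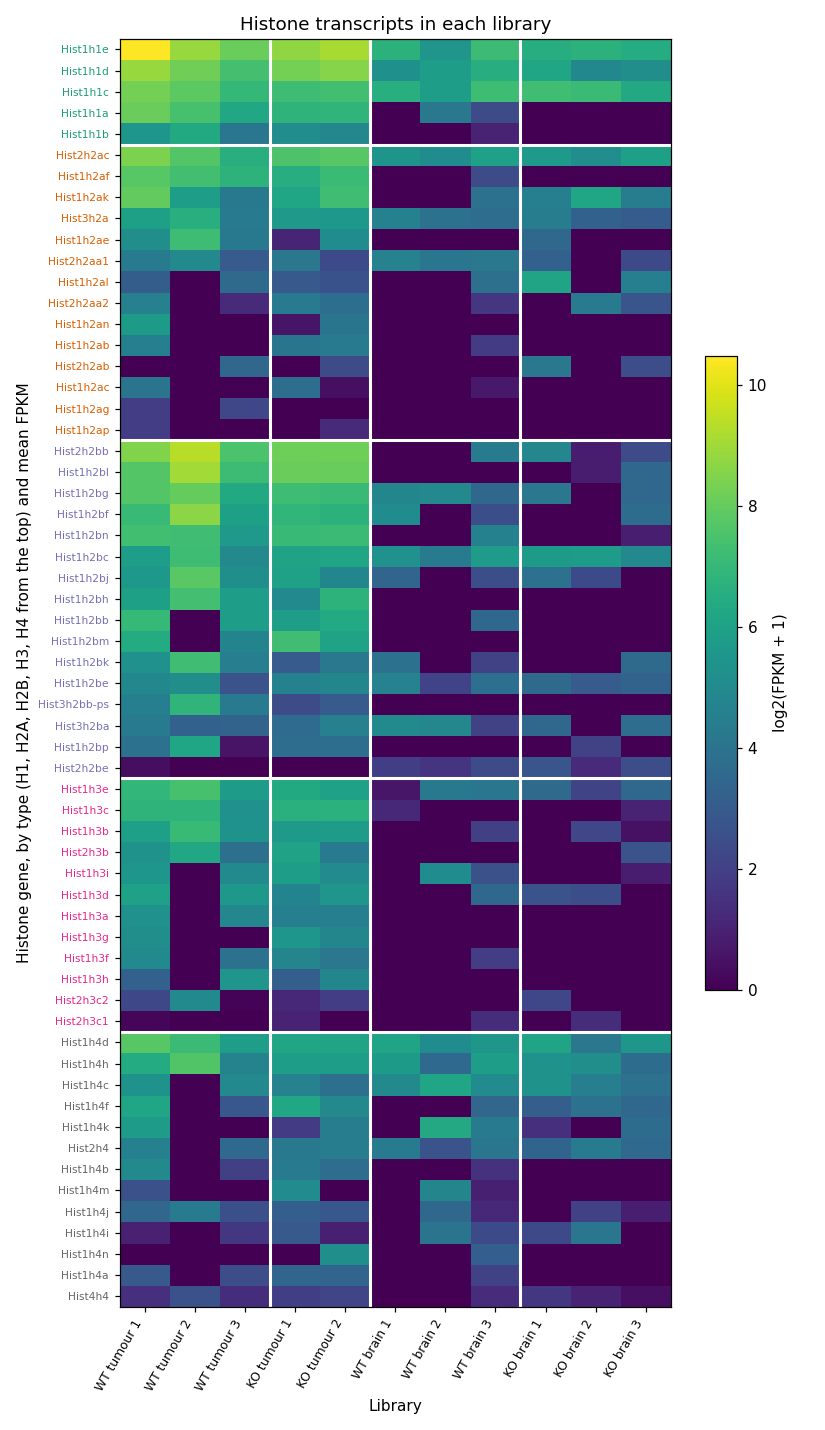
Level of each of the 60 histone genes as log2(FPKM + 1) in the 11 libraries (columns, separated by group), sorted by type and mean level. In brain 13 genes, of all 5 types, are above 0 in every library, while 9 genes, admitted only through tumour, are at 0 in all 6. Wild type tumour 2 holds 27 zeros.

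Changes were tested with limma on log2(FPKM + 1) over all 15605 genes, with Benjamini-Hochberg adjusted p-values and a threshold of 0.05. In wild type mice 20 histone genes rose in tumour against brain, 1 fell and 39 did not pass, while of all tested genes 7.7% rose and 11.7% fell (19.4% in either direction). The rises were 4 of 5 H1, 4 of 14 H2A, 8 of 16 H2B, 4 of 12 H3 and 0 of 13 H4 genes. In knockout mice 18 rose, 0 fell and 42 did not pass, while of all tested genes 4.79% rose and 2.29% fell (7.08% in either direction). These were 4 H1, 2 H2A, 7 H2B, 4 H3 and 1 H4 gene, and 31 members had an unadjusted p under 0.05, 30 of them higher in tumour, as had 24.6% of all genes (11.7% higher). Of the rises, 8 of 20 in wild type and 9 of 18 in knockout mice were of the 24 genes that met the minimum only through tumour, and 12 and 9 were of the other 36. The median log2 difference over the 60 members was 1.89 in wild type and 2.46 in knockout mice, against -0.27 and -0.18 over all genes tested. With a pseudocount of 0.1 in place of 1 the medians of the members were 3.00 and 4.20, many brain values being 0. Of the 20 genes that rose in wild type mice, 15 were among the 18 that rose in knockout mice. The 2 contrasts compare different libraries but share each gene's estimate of spread. Some of the 15 met the minimum only through tumour, and the overlap over all tested genes is not given here.

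The number of histone genes that passed in knockout mice (18) moved with the libraries used, and so did the share of all genes (7.08%). It was 5 without knockout tumour 1 (0.954% of all genes), 6 without knockout tumour 2 (1.56%), 11 without knockout brain 1 (3.62%) and 11 without knockout brain 2 (3.64%). It was 28 without wild type tumour 2 (12.9% of all genes) and 29 without wild type tumours 2 and 3 (17.9%), which enter this contrast only through the shared estimate of spread. The wild type count was 25 without wild type tumour 2 (15.8% of all genes) and 26 without wild type tumours 2 and 3 together (16.4%). The calls of single types in wild type mice moved too. Without wild type tumour 2, 8 of 12 H3 and 1 of 13 H4 genes rose, where 1096 of 15551 tested genes rose. Without wild type tumour 3, 1 of 13 H4 genes rose, where 1351 of 15453 tested genes did. Without wild type brain 2, 5 of 16 H2B and 1 of 13 H4 genes rose, where 884 of 15429 tested genes did, and no H2B gene fell. With weights per library 3 of 13 H4 genes rose, where 1978 of 15605 tested genes did. A fit to only the libraries of the wild type contrast called 10 members and 3.93% of all genes, the calls lost being those of Hist1h1a, Hist1h1d, Hist1h1e, Hist2h2ac, Hist1h2ak, Hist1h2bf, Hist1h2bg, Hist1h2bj, Hist1h2bn, Hist2h2be and Hist1h3e. Of the rises among genes that did not meet the minimum through tumour alone, 3 of 12 in wild type and 2 of 9 in knockout mice held under every alternative setting run. Under some of these settings a gene can enter through tumour alone, as Hist1h3c did.

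**Figure D3:**
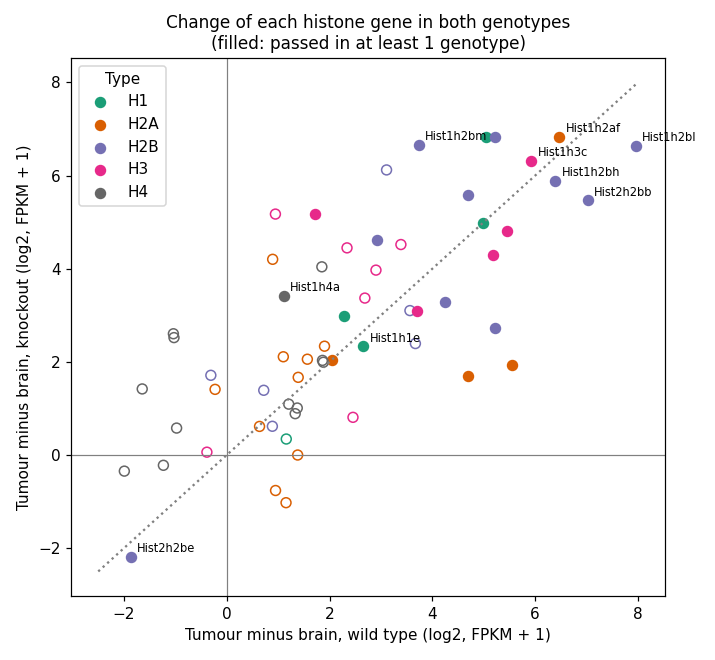
Difference between tumour and brain in log2(FPKM + 1) for each of the 60 histone genes, in wild type (horizontal) and knockout mice (vertical), coloured by type, with filled points for genes that passed in at least 1 genotype and the dotted line at equal differences. Genes of every type except H4 exceed a difference of 5 in at least 1 genotype, and Hist2h2be is the lone gene that passed below 0; where brain is at 0 the size depends on the pseudocount.

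Linker histones were led by Hist1h1e (chr13:23621777-23622558), the gene with the highest mean FPKM of the 60. It was at 1423, 457 and 267 FPKM in wild type tumour and at 423 and 556 in knockout tumour. In brain it was at 106, 43.4 and 146 in wild type and at 92.2, 105 and 89.7 in knockout mice. All tumour libraries lay above all brain libraries, and wild type tumour 1 was far above the rest. Hist1h1e rose by 2.66 log2 units in wild type mice (SE 0.57, limma adjusted p = 0.00953) and by 2.33 in knockout mice (SE 0.63, adjusted p = 0.0488). The knockout call was lost under 11 of 21 alternatives, among them leaving out either knockout tumour library or any knockout brain library.

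Hist1h1d, another somatic H1, was at 466, 290 and 164 FPKM in wild type tumour, 311 and 376 in knockout tumour, 37.0 to 90.6 in wild type brain and 28.9 to 72.8 in knockout brain, without overlap. It rose by 2.28 (SE 0.47, limma adjusted p = 0.00856) in wild type and by 2.99 (SE 0.53, adjusted p = 0.0068) in knockout mice. That knockout call was lost without knockout tumour 1 or 2. Hist1h1a, an H1 typical of dividing cells, was at 272, 170 and 74.6 FPKM in wild type tumour and 110 and 116 in knockout tumour, and at 0, 17.1 and 4.45 in wild type brain. It was listed at 0 in all 3 knockout brain libraries. Its rise of 5.04 in wild type mice passed (SE 0.87, limma adjusted p = 0.00358), and the knockout contrast passed as well (adjusted p = 0.00235), with no fold given against a group at 0.

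Hist1h1c, the H1 gene with the smallest difference, is known to be made also as a poly(A)-tailed mRNA. It was at 314, 230 and 126 FPKM in wild type tumour, 147 and 158 in knockout tumour, 94.0, 57.2 and 149 in wild type brain and 155, 139 and 79.9 in knockout brain. The tissues overlapped, and neither contrast passed (log2 difference 1.16, SE 0.43, limma adjusted p = 0.0826 in wild type mice; 0.34, SE 0.49, adjusted p = 0.714 in knockout mice). The remaining expressed H1 gene, Hist1h1b, met the minimum only through tumour, and the testis gene Hist1h1t was at 0 in all 11 libraries.

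Among H2A genes, Hist2h2ac (chr3:96220413-96220880) had the highest mean FPKM. It was at 341, 206 and 93.7 in wild type tumour and 185 and 213 in knockout tumour, against 42.4, 33.1 and 63.3 in wild type brain and 49.4, 34.6 and 61.7 in knockout brain. The ranges did not overlap, and brain levels were similar in all 6 libraries. It rose by 2.05 in wild type mice (SE 0.45, limma adjusted p = 0.0112) and by 2.05 in knockout mice (SE 0.51, adjusted p = 0.0334). The knockout call was lost under 6 of 21 alternatives, upper quartile scaling and the omission of each knockout library in turn.

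Hist1h2af behaved differently in brain, where it was at 0 in 5 libraries and at 4.40 FPKM in wild type brain 3. In tumour it was at 215, 158 and 110 FPKM in wild type and 91.8 and 140 in knockout mice. Every tumour library was far above every brain library. It met the minimum only through tumour, so no test is given. Hist1h2ak was at 250, 55.9 and 17.7 FPKM in wild type tumour and 72.3 and 154 in knockout tumour, against 0, 0 and 14.5 in wild type brain and 21.9, 70.2 and 20.9 in knockout brain. It rose by 4.69 in wild type mice (SE 1.12, limma adjusted p = 0.0153), a call that was lost without wild type tumour 1, wild type brain 1 or wild type brain 2. In knockout mice, where tumour and brain come close (70.2 and 72.3), its difference of 1.69 did not pass (SE 1.25, limma adjusted p = 0.443).

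Hist3h2a, the H2A gene of the small chromosome 11 cluster, was above 0 in all libraries. It was at 61.7, 97.2 and 19.8 FPKM in wild type tumour and 48.8 and 47.5 in knockout tumour, and at 12.5 to 23.2 in wild type and 7.21 to 20.2 in knockout brain. Neither contrast passed (1.57, SE 0.59, limma adjusted p = 0.0827 in wild type mice; 2.06, SE 0.66, adjusted p = 0.0825 in knockout mice). At the edge of the minimum, Hist1h2ap entered with 2.77 and 1.34 FPKM and Hist1h2ag with 2.74 and 3.71 FPKM, each in 2 tumour libraries and at 0 elsewhere. The genes that did not enter were Hist1h2bq, with a highest value of 0.0487 FPKM, and 9 genes at 0 throughout.

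H2B genes had the highest summed FPKM of the types in 4 of 5 tumour libraries. Hist2h2bb (chr3:96269700-96270192) was at 358, 657 and 183 FPKM in wild type tumour and 285 and 286 in knockout tumour. In brain it was at 0, 0 and 18.3 FPKM in wild type and 27.6, 0.785 and 4.28 in knockout mice, far under every tumour library. It rose by 7.03 in wild type mice (SE 1.17, limma adjusted p = 0.00281) under all 21 alternatives. Its rise of 5.47 in knockout mice (SE 1.31, adjusted p = 0.0291) was lost under 7 of 21, among them the omission of knockout tumour 1 or 2 and of knockout brain 2 or 3.

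Hist1h2bl (chr13:21715711-21716183) and Hist1h2bh (chr13:23542923-23543444) are described because they had the smallest p-values of the wild type contrast among the members. Hist1h2bl was at 206, 512 and 143 FPKM in wild type tumour and 267 and 265 in knockout tumour. It was listed at 0 in all wild type brain libraries and at 0, 0.72 and 10.3 FPKM in knockout brain. Hist1h2bh was at 61.8, 163 and 57.0 FPKM in wild type tumour and 31.1 and 108 in knockout tumour, and at 0 in all 6 brain libraries. Neither gene overlapped between the tissues. Both met the minimum only through tumour, so their contrast is a description of values that the selection used.

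Hist1h2bg and Hist1h2bf also rose in both genotypes, on weaker ground. Hist1h2bg was at 201, 255 and 82.3 FPKM in wild type tumour and 149 and 136 in knockout tumour, against 10.2 to 29.6 in wild type brain and 0 to 16.7 in knockout brain. Its rise of 2.93 in wild type mice (SE 0.91, limma adjusted p = 0.0425) was lost under 13 of 21 alternatives, including the omission of any wild type library except wild type tumour 3. The rise in knockout mice was 4.62 (SE 1.01, adjusted p = 0.0198) and was lost without knockout tumour 1 or 2. Hist1h2bf was at 132, 404 and 61.3 FPKM in wild type tumour and 119 and 104 in knockout tumour, and reached 32.9 in wild type brain and less in every knockout brain library. Its rises of 4.69 (SE 1.27, limma adjusted p = 0.0255) and 5.57 (SE 1.42, adjusted p = 0.0375) were each lost when one of several libraries was left out, wild type tumour 1 or 2 in the former case and knockout tumour 1 or 2 in the latter.

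Hist2h2be (chr3:96221072-96223738) was the exception, singled out after its values were seen. It encodes H2BE, a variant described in mouse neurons. It was at 0.293, 0 and 0 FPKM in wild type tumour and 0 and 0 in knockout tumour, against 2.87, 2.05 and 4.26 in wild type brain and 5.94, 1.41 and 4.58 in knockout brain. It was the one member for which every tumour library lay below every brain library. It met the minimum only through brain, so its difference is given without a test. It is the 1 fall counted in wild type mice, which describes values that the selection used. Upper quartile scaling, quantile normalization, the filter of 5 FPKM or a fit to only the groups compared removed it from the calls. So did the omission of any wild type library or of either knockout tumour library. Of 8 neuron markers, 7 fell in wild type tumour and 1 in knockout tumour, where 11.7% and 2.29% of all tested genes fell. Their summed FPKM was 90.9 to 2773 in wild type tumour, 661 to 1343 in knockout tumour and 4505 to 6250 in brain. No neuron marker was at 0 throughout a group. The part of neuronal RNA in the Hist2h2be difference was not tested.

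Most H3 genes were low in brain, and 3 of 12 were at 0 in all 6 brain libraries, these having met the minimum only through tumour. There were exceptions, since Hist1h3e was above 0 in all 6 and Hist1h3i, singled out after its values were seen, was at 33.7 FPKM in wild type brain 2, above 3 of the 5 tumour libraries (0, 31.5 and 32.0). Hist1h3c (chr13:23745042-23745521) was at 113, 111 and 38.4 FPKM in wild type tumour and 101 and 101 in knockout tumour, and at most at 1.24 FPKM in any brain library. It rose by 5.93 in wild type mice (SE 0.63, limma adjusted p = 0.000278) and by 6.32 in knockout mice (SE 0.70, adjusted p = 0.000816), under every alternative. In brain it met the minimum through wild type brain 1 (1.24 FPKM) and knockout brain 3 (1.09 FPKM). Without either of these, or with the filter of 5 FPKM, it entered only through tumour, and those calls describe values that the selection used. Hist1h3b was at 59.2, 137 and 39.4 FPKM in wild type tumour and 47.8 and 55.1 in knockout tumour, with 0 to 2.98 in wild type brain and 0 to 3.69 in knockout brain. It rose by 5.45 in wild type mice (SE 0.78, limma adjusted p = 0.00123). It also rose by 4.81 in knockout mice (SE 0.88, limma adjusted p = 0.00809), a call that was lost without knockout tumour 1 or 2 and with a pseudocount of 0.1.

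Hist2h3b was at 39.6, 77.4 and 13.8 FPKM in wild type tumour and 63.8 and 19.4 in knockout tumour, and at 0 in all brain libraries except knockout brain 3 (5.47). Every tumour library lay above every brain library, and the gene met the minimum only through tumour. Hist1h3e was the H3 gene with the highest mean FPKM. It was at 122, 170 and 52.7 in wild type tumour and 81.6 and 63.5 in knockout tumour, against 0.553, 18.0 and 16.1 in wild type brain and 11.5, 3.39 and 10.5 in knockout brain. It rose by 3.71 in wild type mice (SE 0.87, limma adjusted p = 0.0142), not without wild type tumours 2 and 3 together, and did not pass in knockout mice (3.09, SE 0.98, adjusted p = 0.0797). Hist2h3c1 was the H3 gene at the edge of the minimum, with a highest value of 1.61 FPKM.

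H4 genes differed among themselves. For 0 of 13 was every tumour library above every brain library, where this held for 8.73% of all tested genes. Within knockout mice it held for 7 of 13, where it did for 22% of all tested genes. The comparison within knockout mice uses fewer libraries and is met more easily. The most abundant of them overlapped between the tissues. Hist1h4d was at 217, 140 and 56.9 FPKM in wild type tumour and 72.3 and 69.1 in knockout tumour, against 68.9, 33.4 and 45.3 in wild type brain and 67.8, 17.0 and 45.9 in knockout brain. The tissues overlapped, and the differences of 1.33 in wild type (SE 0.57, limma adjusted p = 0.122) and 0.89 in knockout mice (SE 0.64, adjusted p = 0.424) did not pass. Hist1h4h was at 85.2, 200 and 24.7 FPKM in wild type tumour and 57.1 and 55.4 in knockout tumour, within or above a brain range of 11.1 to 56.4. Its differences were 1.21 (SE 0.78, limma adjusted p = 0.306) and 1.09 (SE 0.88, adjusted p = 0.484).

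Hist1h4c had a higher mean in brain than in tumour. It was at 39.4, 0 and 29.7 FPKM in wild type tumour and 24.0 and 13.4 in knockout tumour, and at 31.3, 71.6 and 32.3 in wild type brain and 39.5, 21.6 and 14.3 in knockout brain. Neither contrast passed (-1.99, SE 1.12, limma adjusted p = 0.236 in wild type mice; -0.35, SE 1.26, adjusted p = 0.904 in knockout mice). The 0 came from wild type tumour 2. Hist1h4f was at 73.0, 0 and 6.20 FPKM in wild type tumour and 75.1 and 29.3 in knockout tumour, and reached 10.1 in wild type and 14.4 in knockout brain, and neither contrast passed.

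Of 13 H4 genes, 2 had an unadjusted p under 0.05 in each genotype, where 34.4% of all genes did in wild type and 24.6% in knockout mice. The H4 gene counted among the rises in knockout mice was Hist1h4a, at 9.65 and 9.82 FPKM in knockout tumour and 0 in knockout brain, which met the minimum only through tumour. Its place in the count describes values that the selection used, and the omission of any knockout library removed it from the calls. Hist1h4b, also admitted only through tumour, was at 19.3 and 12.3 FPKM in knockout tumour and 0 in knockout brain. Hist4h4, the gene of its own locus on chromosome 6, was at 1.56 to 5.10 FPKM in tumour and 0 to 2.22 in brain and did not pass in either genotype. The 7 members with a higher mean in brain than in tumour were Hist1h4c, Hist1h4i, Hist1h4k, Hist1h2al, Hist2h2ab, Hist2h2be and Hist2h3c1.

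**Figure D4:**
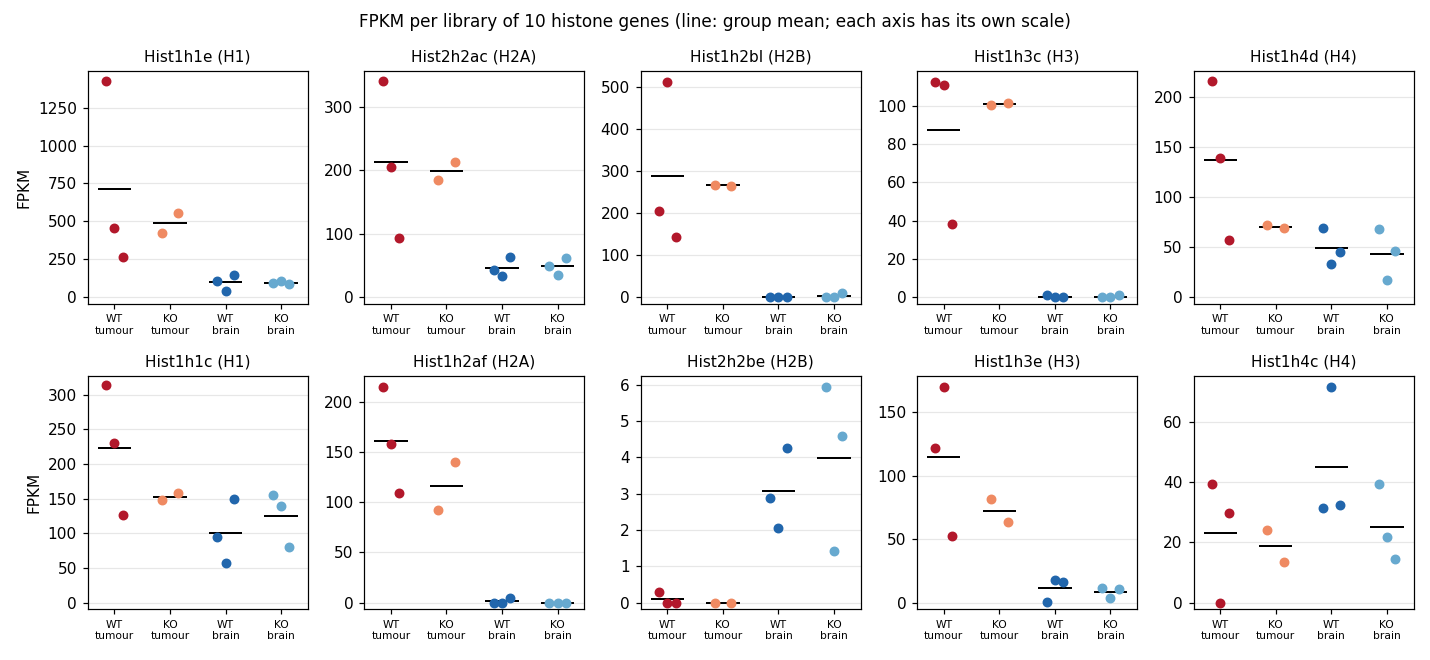
FPKM in each library of 10 histone genes, 2 per type, with a line at each group's mean and a separate linear axis for each gene (WT, wild type; KO, knockout). Hist1h2bl, Hist1h2af and Hist1h3c are at or near 0 in brain, Hist1h1c and both H4 genes overlap between the tissues, and Hist2h2be is higher in brain.

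In the chromosome 13 block at chr13:21715711-22043658, 5 of 17 members rose in wild type and 4 in knockout mice. In the block at chr13:23531044-23934913, 11 of 27 rose in wild type and 11 in knockout mice. Of all tested genes 7.7% and 4.79% rose, and 9 of the 17 and 11 of the 27 met the minimum only through tumour. Median log2 differences were 2.90 and 2.60 in the former block and 2.34 and 3.42 in the latter.

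Histone H2A and H2B genes often lie head to head, with a short shared promoter between them. RefSeq's positions gave 9 such pairs in the Hist1 blocks, with 164 to 281 bases between the starts. Only genes with a promoter window were searched, so further pairs can be missing. The H2A partner was listed at 0 in all 11 libraries in 5 of the 9, although in 3 of these the H2B partner was above 0 in every tumour library. Hist1h2bl, at 143 to 512 FPKM in tumour, lies 229 bases from Hist1h2ai, which was at 0 in every library. Hist1h2bf, at 61.3 to 404 FPKM in tumour, lies 174 bases from Hist1h2ad, which was also at 0 throughout. Hist1h2bk, at 7.15 to 152 FPKM, lies 178 bases from Hist1h2ah, again at 0. In the Hist1h2aa and Hist1h2ba pair, known as testis genes, both partners were at 0 in all libraries.

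The Hist1h2ai and Hist1h2bl pair is shown because its partners differ most in level although their upstream bases overlap over most of their length. Hist1h2bl is read at chr13:21716184-21716363, minus strand, and Hist1h2ai at chr13:21716232-21716411, plus strand, and capitals mark the CCAAT boxes on either strand.
Hist1h2bl: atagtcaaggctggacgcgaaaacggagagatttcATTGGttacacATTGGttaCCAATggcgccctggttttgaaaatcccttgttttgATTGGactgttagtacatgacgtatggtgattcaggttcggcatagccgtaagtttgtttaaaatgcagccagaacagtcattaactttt
Hist1h2ai: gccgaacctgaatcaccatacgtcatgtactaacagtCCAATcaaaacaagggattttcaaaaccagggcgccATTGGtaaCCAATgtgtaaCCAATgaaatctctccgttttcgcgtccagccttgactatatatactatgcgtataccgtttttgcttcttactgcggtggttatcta
The mean over tumour libraries was higher for the H2B partner in 8 of the 9 pairs, which includes Hist1h2bq at 0.00974 FPKM, and H2B exceeded H2A in all 5 tumour libraries in 5 pairs. Hist2h2ac and its chromosome 3 neighbour Hist2h2be, not among the 9, went the other way. They were at 93.7 to 341 and at 0 to 0.293 FPKM in tumour. Where both partners had reads, Hist1h2ak and Hist1h2bn averaged 110 and 127 FPKM in tumour, and Hist1h2ae and Hist1h2bg 47.1 and 165. Coding sequences of histone paralogs are nearly identical, and the counting of reads that match several copies is not stated by the labels or files. Levels of single copies, 0 included, are therefore uncertain.

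**Figure D5:**
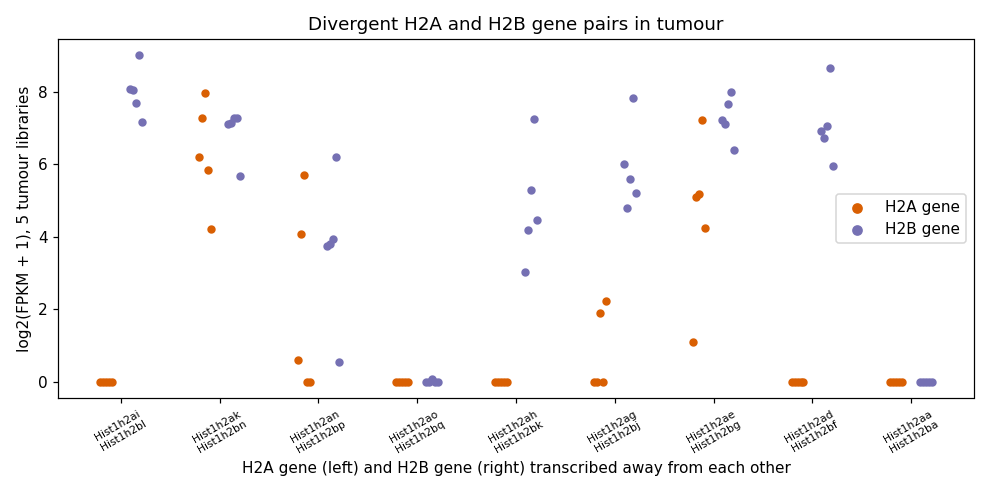
Level as log2(FPKM + 1) in the 5 tumour libraries of the H2A gene (left points) and the H2B gene (right points) of each of 9 head-to-head pairs. The H2A gene is at 0 in all tumour libraries in 5 pairs, and in 3 of these the H2B gene is above 0 in all of them.

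The genotype comparison asked whether the loss of Eltd1 goes with other histone levels. In tumour 0 of 60 members passed with limma and 4 had an unadjusted p under 0.05, where 0.0192% of all tested genes passed and 3.11% had an unadjusted p under 0.05. In brain 0 members passed and 3 had an unadjusted p under 0.05 (0.00641% and 4.34% of all genes). The test of whether the genotype difference itself differs between tumour and brain also passed for 0 members, with 1 unadjusted p under 0.05 (0.00641% and 3.17% of all genes). Median log2 differences, knockout minus wild type, were 0.23 in tumour and 0.00 in brain, against 0.16 and 0.02 over all genes. The direction in tumour turned with the libraries used, the median being -0.19 without wild type tumour 3, -0.24 with weights per library and -0.44 without wild type tumours 2 and 3. In brain it was -0.17 without wild type brain 2 and -0.30 with weights per library.

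The smallest p-values in tumour belonged to Hist3h2bb-ps and Hist1h3g. Hist3h2bb-ps, a pseudogene of the chromosome 11 cluster, was at 22.0, 115 and 18.5 FPKM in wild type tumour and 4.47 and 7.13 in knockout tumour, and at 0 in all brain libraries. Its groups did not overlap, and the difference of -2.48 did not pass (SE 0.78, limma adjusted p = 1). Hist1h3g was at 35.2, 0 and 0 FPKM in wild type tumour and 44.6 and 27.3 in knockout tumour, with a difference of 3.44 (SE 1.26, adjusted p = 1). Without wild type tumour 1 the wild type group is at 0 and Hist1h3g passed. It then met the minimum only through knockout tumour, so that call describes values that the selection used, and no p-value is given. Without wild type tumours 2 and 3 the difference was -0.01.

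In brain the smallest p-values belonged to Hist1h2ak, at 0, 0 and 14.5 FPKM in wild type and 21.9, 70.2 and 20.9 in knockout mice (3.72, SE 1.12, limma adjusted p = 1), and to Hist2h2aa1, at 23.9, 16.3 and 17.1 FPKM in wild type and 8.48, 0 and 3.93 in knockout mice (-2.46, SE 0.85, adjusted p = 1). Neither gene overlapped between the brain groups. Hist2h2aa1 has a near-identical neighbour, Hist2h2aa2, which was at 0, 0 and 2.17 FPKM in wild type brain and 0, 18.6 and 5.78 in knockout brain. For the difference between tissues the smallest p-values were those of Hist3h2bb-ps and Hist1h4n, both with a limma adjusted p of 1 and both at 0 throughout at least 1 group, so no size is given. Hist1h4n rested on knockout tumour 2 (36.0 FPKM) and wild type brain 3 (7.65 FPKM), being at 0 in the other 9 libraries.

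Replacement and variant histones formed a list written for this comparison. Of 11 tested variant histone genes, 2 rose and 1 fell in wild type tumour, where 7.7% of all genes rose and 11.7% fell, and 0 passed in knockout tumour, where 4.79% rose and 2.29% fell. Their median log2 differences were -0.16 and -0.09. Cenpa, the centromeric H3, rose by 4.01 in wild type mice (SE 1.11, limma adjusted p = 0.0273) and H2afx, the H2A variant of DNA damage signalling, by 3.12 (SE 0.90, adjusted p = 0.0325). Both calls were lost under 7 of 21 alternatives, the omission of wild type tumour 1 among them. H3f3a, which encodes the replacement histone H3.3, was at 242, 277 and 146 FPKM in wild type tumour and 453, 368 and 448 in wild type brain. It fell by 0.97 (SE 0.30, limma adjusted p = 0.0441), a call that held under 7 of 21 alternatives. The differences of H3f3b (0.32), H2afz (-0.16) and H1f0 (0.43) in wild type mice did not pass (limma adjusted p = 0.517, 0.835 and 0.43).

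The next list held genes that make and process histone mRNA. Of 27 such genes 6 rose in wild type and 3 in knockout tumour, where 7.7% and 4.79% of all tested genes rose. The number that fell was 0, where 11.7% and 2.29% of all tested genes fell. Median log2 differences of the list were 0.99 and 0.76. Slbp, the stem-loop binding protein, was at 34.8, 100.1 and 50.9 FPKM in wild type tumour and 44.5 and 45.5 in knockout tumour, against 12.1 to 30.2 in wild type and 8.60 to 15.7 in knockout brain. Its tumour and brain libraries did not overlap. It rose by 1.50 in wild type mice (SE 0.48, limma adjusted p = 0.0487), which held under 6 of 21 alternatives, and did not pass in knockout mice (1.82, SE 0.54, adjusted p = 0.0627). Npat was at 6.54, 15.5 and 7.86 FPKM in wild type tumour and 2.07 to 4.05 in wild type brain and did not pass (1.32, SE 0.59, limma adjusted p = 0.139). Cpsf1, a subunit of the cleavage factor, rose by 2.23 (SE 0.33, limma adjusted p = 0.00133), Cpsf2 by 1.91 (SE 0.48, adjusted p = 0.0183) and Upf1, a helicase of histone mRNA decay, by 1.66 (SE 0.35, adjusted p = 0.00942).

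Among histone chaperones, which escort newly made histones to DNA, 11 of 24 rose in wild type and 8 in knockout tumour, and 0 fell (medians 1.41 and 1.40). Beside the counts of this paragraph, 7.7% of all tested genes rose in wild type and 4.79% in knockout tumour, and 11.7% and 2.29% fell. Chaf1a, the large subunit of the chromatin assembly factor, rose by 4.72 in wild type mice (SE 0.66, limma adjusted p = 0.00111), Npm1 by 2.77 (SE 0.34, adjusted p = 0.000603) and Rbbp7 by 1.95 (SE 0.26, adjusted p = 0.000783). Of 34 genes of S phase and DNA synthesis, 21 rose in wild type and 20 in knockout tumour, and 0 fell (medians 3.36 and 3.29). The DNA ligase Lig1 rose by 3.52 in wild type mice (SE 0.41, limma adjusted p = 0.000429). Uhrf1 and the replication initiation gene Mcm10 met the minimum only through tumour and are given without a test. Uhrf1 was at 48.9, 103 and 42.4 FPKM in wild type tumour and 0.106, 0 and 0.496 in wild type brain. Mcm10 was at 45.1, 84.4 and 23.1 FPKM in wild type tumour and 0, 0 and 0.557 in wild type brain. All 20 genes of G2 and mitosis rose in wild type and 18 in knockout tumour (medians 5.40 and 4.86). In wild type mice Cdk1 rose by 6.91 (SE 0.51) and Top2a by 7.52 (SE 0.58). Cdc20 met the minimum only through tumour, at 154, 127 and 91.8 FPKM in wild type tumour and at most 0.907 in brain. Of the 20, 15, 16 and 4 were at 0 in wild type brain and 12, 13 and 2 in knockout brain. The counts of this paragraph include genes that met the minimum only through tumour, for which they describe values that the selection used.

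Markers of other cells also differed between the tissues. Of all tested genes 7.7% rose and 11.7% fell in wild type tumour, and 4.79% rose and 2.29% fell in knockout tumour. Summed FPKM of 8 markers of neural progenitor and glioma cells was 140 to 309 in tumour and 183 to 421 in brain, and 3 rose and 2 fell in wild type mice while 3 rose in knockout mice. Of 8 microglia and macrophage markers 2 rose in wild type and 1 in knockout tumour, with summed FPKM of 79.9 to 215 in wild type tumour, 240 to 249 in knockout tumour and 17.4 to 54.5 in brain, Aif1 being at 0 throughout wild type brain. Of the 12 endothelial markers 7 fell in wild type and 3 in knockout tumour. The part of each cell type in the histone levels was not tested.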

How the data were processed

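RNA from the purification of tagged endothelial ribosomes was measured in 11 libraries. The values deposited by the authors are FPKM, as the file headers state. TopHat2 2.1.1, Cufflinks 2.2.1 and the build GRCm38 are named per the submitters' processing notes. What each tool did, the annotation, strand use and the handling of reads that match several copies are not given in the sources read here.

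Each file listed 46073 entries. Repeated entries of 189 symbols, 396 in all, were summed, which left 45866 genes; Hist2h2bb had 2 entries. Low values were searched for steps of whole reads, and at most 1.58% of low genes (0.246% at least) shared the commonest ratio between 2 libraries, so read depth is unknown and no counting interval is given. Limma 3.58.1 in R 4.3.3 (functions lmFit, contrasts.fit, eBayes; trended variance) was fitted to log2(FPKM + 1) of the 15605 genes with at least 1 FPKM in at least 2 libraries. The fit held 4 group means and 7 residual degrees of freedom. The 5 contrasts were two-sided, each adjusted by Benjamini-Hochberg over all genes tested, and the script was tested on simulated data. Log2 differences are on this scale, which understates changes of low genes, and the text gives no difference for a gene against a group at 0.

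Replicates are separate mouse samples per the labels, and replicate numbers, given in accession order, pair no samples. The alternatives were a pseudocount of 0.1 or 0.5, an FPKM filter of 5 or none, upper quartile scaling, quantile normalization, library weights, a fit restricted to the groups of a contrast, the highest of repeated entries, and the omission of each library. Leaving out wild type tumours 2 and 3 together was chosen after seeing the data. Members and gene lists were chosen with earlier results of these data known. Named with values were, in each type, the 4 members with the highest mean FPKM. The others were the 2 with the smallest p per contrast, the 2 highest of each smaller cluster, genes at the edge of the minimum, the 3 list genes with the smallest p, and Slbp, Npat, H2afx, H2afz, H3f3a, H3f3b, H1f0, Adgrl4 and Snap25. Hist2h2be, Hist1h1b, Hist1h3i, Hist1h4a and Hist1h4b were named after their values were seen, and paired genes by position. Markers of 9 cell types were checked, and the single value of 1 marker is not reported here.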

Additional observations from a re-analysis of the deposited data

How the results depend on the processing

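The number of histone genes that passed in tumour against brain moved with several settings. In wild type mice (21 passed) the count was 39 with weights per library and 10 in a fit to only the groups compared, where 31.6% and 3.93% of all genes passed against 19.4%, and leaving out 1 library gave 17 to 26. In knockout mice (18 passed) it was 28 after quantile normalization, 32 with weights per library and 29 without wild type tumours 2 and 3 together (11.7%, 26.4% and 17.9% of all genes, against 7.08%), and leaving out 1 library gave 5 to 28. Over these omissions of 1 library, 11.8% to 25.1% of all genes passed in wild type and 0.954% to 12.9% in knockout mice. For knockout against wild type in tumour (0 passed), leaving out 1 library gave 0 to 1 (0% to 0.186% of all genes). In brain, and for the difference between tissues, 0 passed under all alternatives run. The fit to only the groups compared gives no value for that difference, which uses all groups.

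Log2 differences that changed sign were those of Hist1h4c in knockout mice, 0.0534 without knockout tumour 2 and 0.03 without knockout brain 1, and Hist2h2aa1 in wild type mice, 0.31 without wild type tumour 3. Leaving out 1 library gave -0.75 to 0.0534 for Hist1h4c and -0.66 to 0.31 for Hist2h2aa1. Hist1h3g in knockout against wild type tumour was at -0.0123 without wild type tumours 2 and 3. None of these values passed the test. The cause was not tested. Of the other values of named genes, 1088 kept direction and side of the threshold, 31 came to pass and 85 no longer passed.

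Of all genes that passed in wild type mice 39.7% were higher in tumour, against 51.2% after upper quartile scaling and 52.2% after quantile normalization, and in knockout mice 67.7% against 84.0% after upper quartile scaling, 63.3% after quantile normalization and 45.2% with weights per library. Over all genes the median difference went from -0.27 to -0.16 and 0.01 in wild type mice, and from -0.18 to -0.02 after upper quartile scaling in knockout mice. No paired analysis was possible because replicate numbers were given in accession order and pair no samples. Depth is unknown, so levels near 0 have no stated precision.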
